A study of Mus musculus with 4 samples.

Results

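The genes described here are 10 glucocorticoid-responsive genes of mouse lung, Fkbp5, Tsc22d3, Zbtb16, Per1, Sgk1, Mt1, Mt2, Pdk4, Angptl4 and Cdkn1a. They were taken by name as known targets of the glucocorticoid receptor, with earlier results of these data known, so that counts of them are a description. All 10 were found among the 41079 genes of the count table. RNA-seq had been run on whole lung from C57BL/6 wild-type (WT) mice and from mice lacking Rab44 (Rab44-KO), a large Rab GTPase, made by CRISPR/Cas9 editing in the same strain. The animals were female littermates of 8 to 14 weeks. In the OVA-induced groups, mice of each genotype were injected intraperitoneally with 100 μg of ovalbumin (OVA) in aluminum hydroxide on days 0, 7 and 14. From day 17 to day 20 they were anesthetized, immobilized and challenged through the nose with 100 μg of OVA in 50 μL, and the lung was collected on day 21. The normal WT and normal Rab44-KO groups are controls whose treatment label gives none, although the protocol text shared by all samples also names a challenge with saline, and whether those mice were handled or anesthetized in the same way is not stated. Each of the 4 groups is 1 library, the number of mice behind a library is not given, and the hour of collection is not given. Without replicates, each comparison below is between single libraries. The intervals printed are 95% counting intervals, exact for levels and for ratios of 2 libraries, and they cover counting error only.

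Glucocorticoids (corticosterone in the mouse) enter cells and bind the receptor encoded by Nr3c1. The receptor is held in complexes with heat-shock proteins and immunophilins such as Fkbp4 and Fkbp5. The hormone-bound receptor moves to the nucleus and binds paired hexamers in DNA, recruiting coactivators and corepressors. In lung the hormone matures surfactant-producing epithelium and damps allergic inflammation, and synthetic glucocorticoids are the main inhaled treatment for asthma. Several of the 10 genes also answer to other inputs. The metallothioneins Mt1 and Mt2 respond to zinc and to inflammation, Pdk4 and Angptl4 to fasting and PPAR nuclear receptors, Cdkn1a to p53, and Per1 to the circadian clock.

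The DNA just upstream of these genes was searched for the letters of some of those inputs. RefSeq start sites on GRCm38.p6 were found for 8 of the 10 genes (17 start sites). The palindromic glucocorticoid response element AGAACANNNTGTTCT lay in the 250 bases before a start in 3 of 32851 such windows of the genome (0.00913%), and 1 of those 3 belongs to Sgk1. A single hexamer, AGAACA or TGTTCT, was far more common, in 16.1% of windows, and was found in windows of Sgk1 and Tsc22d3. Sgk1 has several start sites, and the window shown is the only Sgk1 window that held this element. The element begins at position -189 from that start, and every hexamer is in capitals. The Mt2 and Mt1 windows are shown for the core of the metal response element, TGCACNC or TGCGCNC on either strand, in capitals. That core was present in 21.4% of windows, and 1.26% held 3 or more as Mt2 does, while Mt1 and a window of Per1 that is not printed held 1 each. The Per1 window is shown with the E-box CACGTG, the site of the clock activators (6.02% of windows), and the short form of the cyclic AMP element, TGACG or CGTCA, (17.8% of windows) in capitals. Windows of Fkbp5 and Sgk1 also held the E-box, in Sgk1 within the window printed, where it overlaps the first hexamer and is not marked. The short cyclic AMP form was also in windows of Mt1, Sgk1 and Tsc22d3, in Mt1 within the window printed, where it is not marked. The full cyclic AMP element TGACGTCA was in no window of the 8 genes and in 1.55% of all windows. A match describes the letters in these windows and shows no binding. DNA outside the windows was not searched, so a low count does not show that a gene lacks an element.
Sgk1 chr10:21993640-21993889, plus strand: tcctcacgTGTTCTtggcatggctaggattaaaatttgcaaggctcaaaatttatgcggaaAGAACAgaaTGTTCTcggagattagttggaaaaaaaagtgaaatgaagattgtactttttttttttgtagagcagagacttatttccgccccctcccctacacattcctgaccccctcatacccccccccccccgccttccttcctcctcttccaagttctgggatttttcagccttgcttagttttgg
Mt2 chr8:94172368-94172617, plus strand: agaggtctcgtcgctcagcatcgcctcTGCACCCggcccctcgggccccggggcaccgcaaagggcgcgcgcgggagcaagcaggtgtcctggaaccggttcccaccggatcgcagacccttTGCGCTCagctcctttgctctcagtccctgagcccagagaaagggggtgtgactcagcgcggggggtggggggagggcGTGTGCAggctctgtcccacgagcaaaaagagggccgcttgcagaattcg
Mt1 chr8:94178839-94179088, plus strand: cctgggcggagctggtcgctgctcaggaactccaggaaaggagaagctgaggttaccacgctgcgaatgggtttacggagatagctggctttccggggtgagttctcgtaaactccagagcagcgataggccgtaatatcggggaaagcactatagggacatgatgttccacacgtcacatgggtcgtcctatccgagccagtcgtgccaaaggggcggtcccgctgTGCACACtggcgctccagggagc
Per1 chr11:69098699-69098948, plus strand: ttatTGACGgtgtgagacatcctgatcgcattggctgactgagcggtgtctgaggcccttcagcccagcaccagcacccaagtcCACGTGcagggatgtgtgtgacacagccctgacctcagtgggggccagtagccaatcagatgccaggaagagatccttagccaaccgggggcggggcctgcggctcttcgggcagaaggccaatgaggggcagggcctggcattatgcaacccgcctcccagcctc

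Total counts ran from 18112901 to 19910236 per library, so the 10 genes were measured at similar depth in all groups, and each had at least 100 counts in every library. Rab44 itself had 251 counts in normal WT and 810 in OVA-induced WT. Rab44-KO had 1 count without and 0 with OVA, where the upper Poisson bound was 0.189 CPM (counts scaled to the size of the library), so the labels matched the targeted gene. On the GENCODE M21 annotation of GRCm38, Cdkn1a lies on chromosome 17, plus strand, from 29090976 to 29100727, 13.4 kb from Rab44 (29114145 to 29148980). Fkbp5 (28399094 to 28517527) and Angptl4 (33773750 to 33781830) are on the minus strand of the same chromosome, 0.597 and 4.62 Mb from Rab44. Mt2 and Mt1 are neighbours on the plus strand of chromosome 8, at 94172664 to 94173568 and 94179082 to 94180327. Of the stretches of 150 bases in the transcripts, 13.9% of those of Mt2 were shared with the antisense gene Gm45774 and 3.27% of those of Cdkn1a with AC167363.2, and the strand setting of the counting is not stated, so these levels carry that uncertainty. Mt1 and Mt2 shared no such stretch with each other.

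Summed over the 10 genes, the level was lowest in normal WT at 725 CPM. It was 965 CPM in Rab44-KO without OVA and 1020 CPM in WT with OVA, and highest at 1553 CPM in Rab44-KO with OVA. CPM here are scaled with TMM factors, which set the libraries to a common centre. The 10 genes together took from 0.0727% to 0.158% of all counts. In whole lung, fewer cells of a type and less RNA per cell cannot be told apart, and this holds for every level below. Compared per length, on the TPM scale, Tsc22d3 was the highest of the 10 in normal WT (145.5 TPM) and Pdk4 the lowest (7.57 TPM). In OVA-induced Rab44-KO the order differed, with Cdkn1a at 413.7 TPM above Tsc22d3 at 276.9 TPM and Zbtb16 at 10.9 TPM the lowest.

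**Figure D1:**
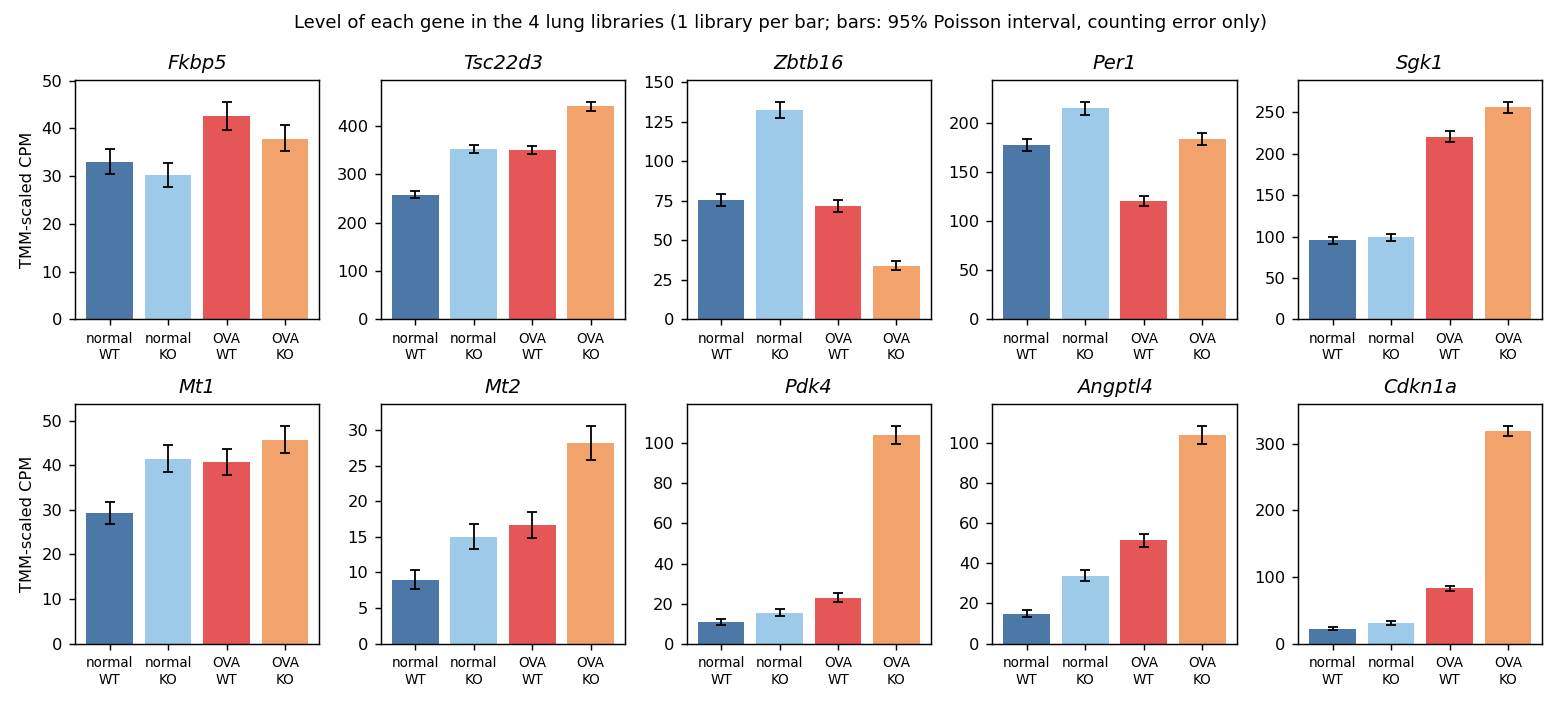
Level of each of the 10 genes in TMM-scaled CPM (linear axes from 0), 1 panel per gene and 1 bar per library, with 95% Poisson intervals for counting error. Pdk4, Angptl4 and Cdkn1a are highest in OVA-induced Rab44-KO (104, 104 and 319 CPM), Zbtb16 is lowest there (34.0 CPM), and the intervals of Fkbp5 overlap between neighbouring libraries in its order of levels.

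On TMM-scaled counts Fkbp5 and Tsc22d3 stayed under 1.5-fold in each comparison, and on TPM Tsc22d3 passed it between the OVA-induced genotypes (log2 0.66). Fkbp5, the immunophilin that lowers the receptor's affinity for hormone and is a classic feedback target, had 632 counts in WT and 551 in Rab44-KO normal lung, and 825 and 738 in OVA-induced lung. Its whole range was 0.50 on the log2 scale, the smallest of the 10, and every neighbouring pair in its order of levels had overlapping intervals. Its log2 ratio with OVA was 0.37 (0.22 to 0.52) in WT and 0.33 (0.17 to 0.49) in Rab44-KO, so both intervals lay above 0. For Rab44-KO over WT with OVA the log2 ratio of Fkbp5 was -0.17 (-0.32 to -0.03), an interval below 0. On TPM that ratio was 0.16, so its sign depends on the scale. Tsc22d3, which encodes the anti-inflammatory protein GILZ, had 4936 and 6408 counts in WT and Rab44-KO normal lung, and 6763 and 8586 in OVA-induced lung. It was lowest in normal WT and highest in OVA-induced Rab44-KO, with the other two libraries overlapping between them (351 and 349 CPM). Its log2 ratio was 0.44 (0.39 to 0.50) for OVA-induced over normal WT and 0.45 (0.40 to 0.50) for Rab44-KO over WT under normal conditions, so both steps were under 1.5-fold.

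Zbtb16, a zinc-finger transcription factor (PLZF) induced strongly by glucocorticoids in many cells and also needed by natural killer T cells, had an order of libraries of its own. WT had 1447 counts in normal and 1389 in OVA-induced lung, and Rab44-KO had 2415 and 663. The 2 WT libraries overlapped (75.4 and 71.7 CPM), whereas the Rab44-KO libraries were the highest and the lowest of the 4. The Rab44-KO level was 1.76-fold that of WT under normal conditions (log2 0.81, 0.72 to 0.91) and 2.11-fold lower than WT under OVA-induced conditions (log2 -1.08, -1.21 to -0.94). Within Rab44-KO, the OVA-induced library was 3.89-fold lower than the normal one (log2 -1.96, -2.09 to -1.84), and 0.133% of the 13484 genes compared had a lower ratio.

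Per1, a period protein of the clock that glucocorticoids induce directly, had 3417 and 2343 counts in WT, without and with OVA, and 3931 and 3594 in Rab44-KO. OVA-induced WT was the lowest library (121 CPM), and normal WT and OVA-induced Rab44-KO overlapped (178 and 184 CPM). The OVA-induced ratio was log2 -0.56 (-0.63 to -0.48) in WT and -0.22 (-0.29 to -0.16) in Rab44-KO. Under OVA-induced conditions Rab44-KO was 1.52-fold higher than WT, just past the 1.5-fold used here as the mark of a difference.

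Sgk1, the serum- and glucocorticoid-induced kinase that stabilizes epithelial sodium channels, differed by over 1.5-fold with OVA and by less between genotypes. Its counts were 1832 (WT) and 1806 (Rab44-KO) in normal lung and 4270 (WT) and 4988 (Rab44-KO) in OVA-induced lung. The normal libraries overlapped (95.4 and 99.0 CPM) and both OVA-induced libraries lay above them (220 and 256 CPM). OVA-induced lung was 2.31-fold higher in WT and 2.59-fold higher in Rab44-KO, while Rab44-KO over WT was log2 0.05 (-0.04 to 0.15) in normal lung and 0.21 (0.16 to 0.27) with OVA.

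The metallothioneins, small zinc-binding proteins, were lowest in normal WT and highest in OVA-induced Rab44-KO, and Mt2 covered the wider range. Mt1 had 562 and 788 counts in WT, without and with OVA, and 757 and 891 in Rab44-KO. Mt2 had 171 and 322 in WT and 273 and 548 in Rab44-KO. Mt1 in normal WT (29.3 CPM) lay below the other 3 libraries, whose neighbours overlapped (40.7 to 45.7 CPM). Mt2 was 1.87-fold higher with OVA in WT and 1.88-fold in Rab44-KO, and Rab44-KO exceeded WT by 1.68-fold in normal and 1.69-fold in OVA-induced lung. Per length, Mt1 stood above Mt2 in normal WT (TPM ratio 1.45) and below it in OVA-induced Rab44-KO (0.719). The 3 metal cores marked above for Mt2 and the 1 for Mt1 are counts within the printed windows only. Each window stops at the start site used, and the DNA after that start was not searched. The counts therefore do not show which of Mt1 and Mt2 has more metal elements. Their relation to these levels was not tested.

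Pdk4, the kinase that shuts off pyruvate oxidation, had 211 and 445 counts in WT, without and with OVA, and 283 and 2028 in Rab44-KO. No intervals overlapped, and OVA-induced Rab44-KO stood far above the other 3 libraries (104 CPM against at most 23.0 CPM). OVA-induced lung was 2.09-fold higher in WT (log2 1.06, 0.82 to 1.31) and 6.71-fold higher in Rab44-KO (log2 2.75, 2.57 to 2.93). The difference between these log2 ratios was 1.68 (1.39 to 1.98).

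Angptl4, a secreted inhibitor of lipoprotein lipase, had 283 and 995 counts in WT, without and with OVA, and 616 and 2021 in Rab44-KO. All 4 libraries were apart, and it was the member with the highest genotype ratio under normal conditions, 2.29-fold (log2 1.20, 0.99 to 1.40). The OVA-induced ratio was 3.48-fold in WT and 3.07-fold in Rab44-KO, and the interval of their difference included 0 (log2 -0.18, -0.41 to 0.05). The 2 ratios therefore did not differ beyond counting error.

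Cdkn1a, which encodes the cell-cycle inhibitor p21, had the widest range of the 10, 3.81 on the log2 scale. WT had 437 counts without and 1609 with OVA, and Rab44-KO had 564 and 6217. The libraries were apart, in the same ascending order as for Pdk4 and Angptl4. OVA-induced lung was 3.65-fold higher in WT (log2 1.87, 1.71 to 2.02) and 10.3-fold higher in Rab44-KO (log2 3.37, 3.24 to 3.49), and the second ratio was 2.83 times the first (log2 interval of the difference, 1.30 to 1.70). In Rab44-KO, 99.7% of the genes compared had a lower OVA ratio than Cdkn1a.

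**Figure D2:**
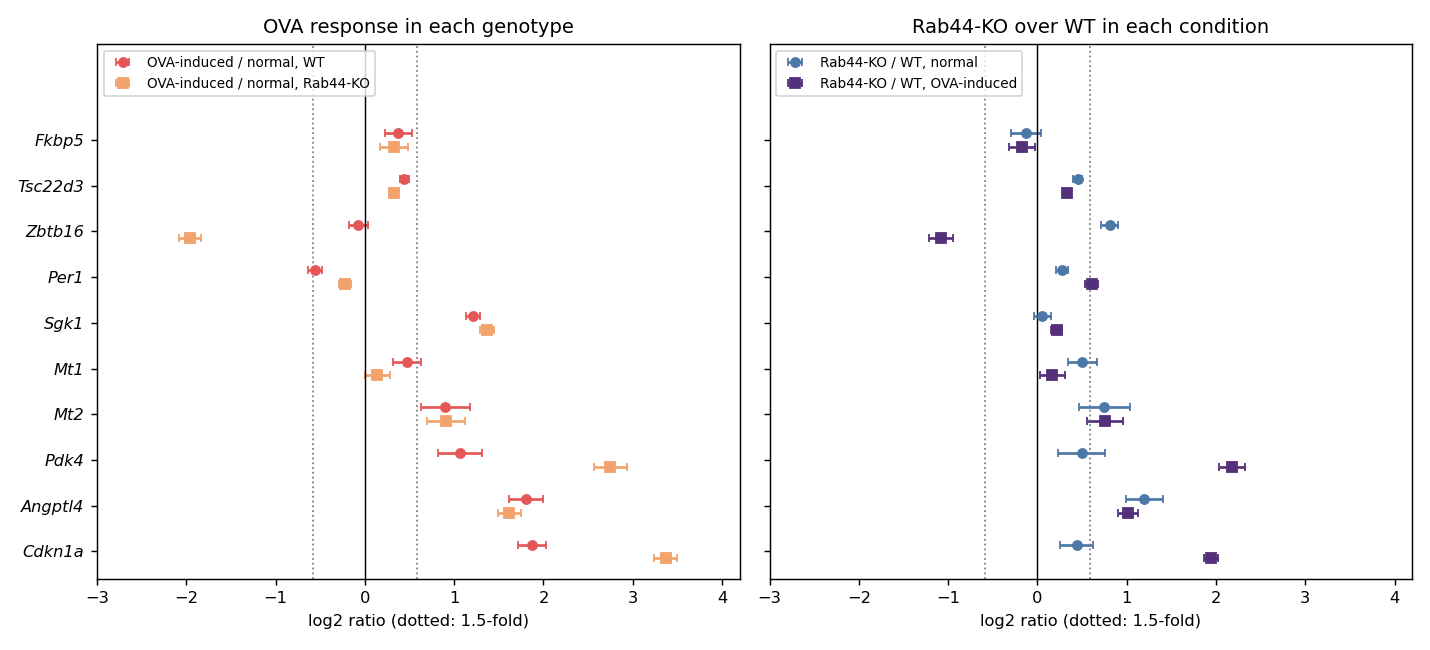
Log2 ratios of the 10 genes with 95% counting intervals, for OVA-induced over normal lung in each genotype (left) and Rab44-KO over WT in each condition (right); dotted lines mark 1.5-fold. Pdk4 (log2 1.06 and 2.75) and Cdkn1a (1.87 and 3.37) separate between genotypes on the left, and Zbtb16 changes side on the right (0.81 and -1.08).

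Counted together, 5 of the 10 genes were over 1.5-fold higher with OVA in WT (Sgk1, Mt2, Pdk4, Angptl4 and Cdkn1a) and 0 were lower, where 11.1% and 7.77% of the 13575 genes compared were higher and lower. The median log2 ratio of the 10 genes was 0.69, and that of all genes was 0.01. In Rab44-KO the same 5 genes were higher with OVA and Zbtb16 was lower, against 6.71% and 6.1% of 13484 genes. The median was 0.62, beside -0.02 for all genes. Fkbp5, Tsc22d3 and Mt1 stayed under 1.5-fold in both genotypes, with ratios above 0 in each.

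Between genotypes under normal conditions, few genes of the lung passed 1.5-fold. Zbtb16, Mt2 and Angptl4 were over 1.5-fold higher in Rab44-KO lung and 0 members were lower, where 1.37% and 0.577% of 13166 genes were higher and lower. Of the 10 genes, 9 had a ratio above 0, and the median was 0.47 beside -0.01 for all genes. Below the 1.5-fold mark, Tsc22d3, Mt1, Pdk4 and Cdkn1a had log2 ratios from 0.44 to 0.50, each above 97.2% to 98.0% of the genes compared. The interval of Fkbp5 included 0 (log2 -0.12, -0.29 to 0.04), as did that of Sgk1.

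Between genotypes under OVA-induced conditions, Per1, Mt2, Pdk4, Angptl4 and Cdkn1a were over 1.5-fold higher in Rab44-KO and Zbtb16 was lower. Here 12.2% of 13704 genes were higher and 15.2% lower, so the lung as a whole differed far more than under normal conditions. The median of the 10 genes was again 0.47, beside -0.06 for all genes. On TPM, which are scaled differently, 27.3% of genes were higher and 5.45% lower in this comparison and the median of all genes moved to 0.26, while the directions of Per1, Mt2, Pdk4, Angptl4, Cdkn1a and Zbtb16 were kept. Pdk4 (4.53-fold) and Cdkn1a (3.84-fold) had the largest ratios of the 10. The genotype comparisons and the OVA comparisons use the same 4 libraries and are not independent of each other.

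The OVA response differed between genotypes by over 1.5-fold for 3 of the 10 genes, upward in Rab44-KO for Pdk4 and Cdkn1a and downward for Zbtb16, where 11.3% and 14.9% of 13899 genes differed upward and downward. On TPM 3 members differed upward and 1 downward, where 24.9% and 6.39% of all genes did. The median of the differences over the 10 genes was -0.02, beside -0.05 for all genes. Its sign depends on the scale, since it was 0.04 with total counts and 0.28 on TPM, where the median of all genes was 0.24. The other 7 differences lay between -0.34 for Mt1 and 0.33 for Per1, and those of Fkbp5, Mt2 and Angptl4 had intervals that included 0.

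**Figure D3:**
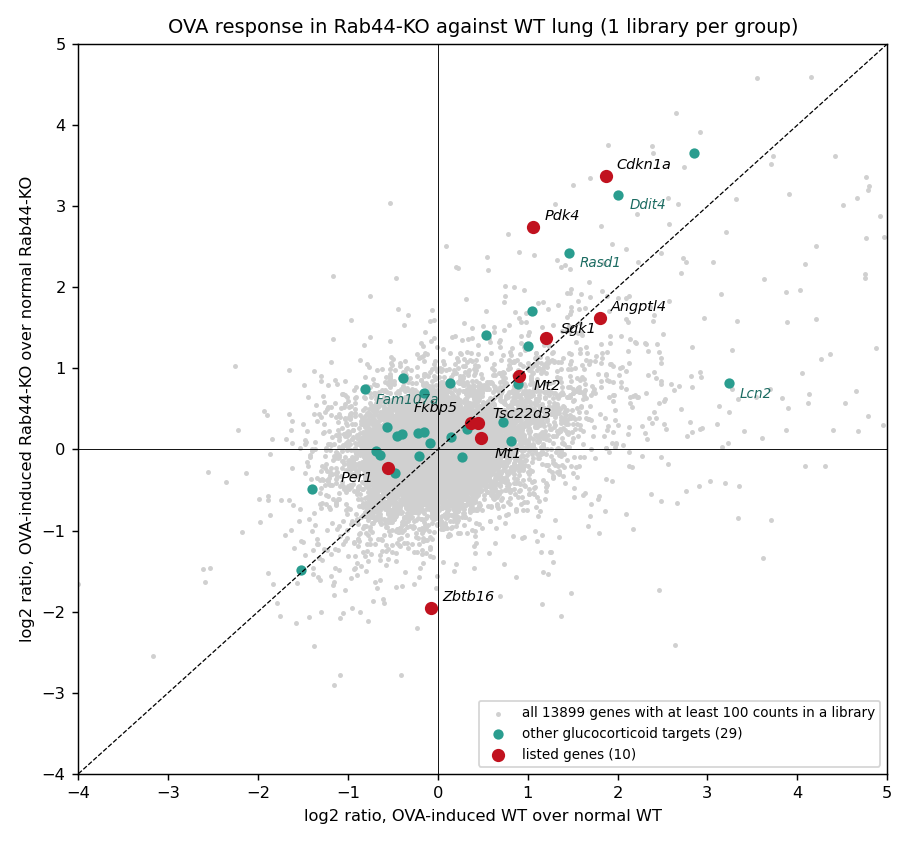
Log2 ratio of OVA-induced over normal lung in WT (x axis) and Rab44-KO (y axis) for genes with at least 100 counts in a library (grey), 29 other glucocorticoid targets (green) and the 10 listed genes (red); the dashed line is equality, and 88 of 13899 genes fall outside the axes. Cdkn1a and Pdk4 lie above the line and Zbtb16 below it.

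The receptor and its chaperones spanned at most 0.94 on the log2 CPM scale over the 4 libraries. Nr3c1 had 4650 and 3218 counts in WT, without and with OVA, and 4637 and 4613 in Rab44-KO. OVA-induced WT was thus the low library, with log2 ratios of -0.54 for OVA in WT and 0.51 (0.44 to 0.58) for Rab44-KO over WT with OVA. Of 11 receptor and chaperone genes, Fkbp5 among them, 1 was over 1.5-fold higher and 1 lower with OVA in WT, 3 were higher with OVA in Rab44-KO, and 1 was higher between the OVA-induced genotypes. Over all genes, the shares higher and lower were 11.1% and 7.77%, 6.71% and 6.1%, and 12.2% and 15.2% in those comparisons. On TPM 0 were higher and 2 lower with OVA in WT, and 3 were higher between the OVA-induced genotypes, where the median moved from -0.03 to 0.29. The chaperones that hold the receptor ready for hormone, Hsp90aa1 (6087 and 8640 counts in WT, 6033 and 11889 in Rab44-KO) and Hsp90ab1 (17330 and 24420, 15173 and 27727), were highest in OVA-induced Rab44-KO, and the mineralocorticoid receptor Nr3c2 was lowest in OVA-induced WT (310 counts against 484 to 543).

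With OVA, all 9 receptor coregulators had more RNA in Rab44-KO lung, 6 of them by over 1.5-fold, with a median log2 ratio of 0.74. Over all genes, 12.2% were higher with a median of -0.06. On TPM all 9 passed 1.5-fold (median 1.06), where 27.3% of all genes were higher and their median was 0.26. Under normal conditions 0 of the 9 passed 1.5-fold between genotypes, and the median was 0.10. The corepressor Nrip1 had 680 and 604 counts in WT, without and with OVA, and 671 and 1115 in Rab44-KO. The acetyltransferase Ep300 had 1682 and 1276 in WT and 1844 and 2327 in Rab44-KO. The corepressor Ncor1 had 3079 and 2700 in WT and 3231 and 4785 in Rab44-KO. In each of the 3, OVA-induced WT was the lowest library and OVA-induced Rab44-KO the highest.

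Of the genes that supply or export the hormone, Hsd11b1, which regenerates active corticosterone inside cells, had 5204 and 4391 counts in the normal libraries and 3636 and 3770 in the OVA-induced ones. Its genotype ratio with OVA was log2 0.04 (-0.02 to 0.11). The efflux pump Abcb1a, which carries glucocorticoids out of cells, had 827 counts in WT and 1756 in Rab44-KO after OVA (log2 1.08, 0.96 to 1.20), with 1185 and 1359 in the normal libraries. Abcb1b had 84 to 177 counts. Only 5 of the 12 listed supply genes reached 100 counts in a library compared, and Cyp21a1 and Cyp11b1, enzymes of adrenal hormone synthesis, had 0 to 3 counts.

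A longer list of 30 other known glucocorticoid targets gave a wider view. With OVA in WT, 8 of the 27 with enough counts were over 1.5-fold higher and 4 lower, and the median was -0.09 (on TPM, 7 and 7 with a median of -0.26). In Rab44-KO 12 of 29 were higher and 1 lower (median 0.26). Between genotypes, 3 of 27 were higher and 0 lower under normal conditions (median 0.18), and 12 of 27 were higher and 1 lower with OVA (median 0.51; on TPM, 16 and 1 with a median of 0.84). The backgrounds are the shares of all genes given above for each comparison. The 3 targets with the widest range were Il1r2, Ddit4 and Lcn2. The decoy receptor Il1r2 had 11 and 9 counts in the normal libraries and 81 and 123 in the OVA-induced ones. It reached 100 counts in OVA-induced Rab44-KO only, so it was counted in Rab44-KO and not with OVA in WT. Ddit4, an inhibitor of mTOR signalling, had 557 and 2262 counts in WT, without and with OVA, and 597 and 5621 in Rab44-KO, the same ascending order as Cdkn1a. Lcn2, an iron-binding protein that inflamed epithelium also makes, was the 1 target over 1.5-fold lower in Rab44-KO after OVA (2710 counts, against 9933 in WT).

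Dusp1, Fam107a and Errfi1, picked from the list after their values were seen, were also highest in OVA-induced Rab44-KO. How many of the list were highest there was not counted. The phosphatase gene Dusp1 had 4307 and 3899 counts in WT, without and with OVA, and 7681 and 13285 in Rab44-KO. Dusp1 was therefore higher in Rab44-KO in both conditions (log2 0.91 and 1.76), with the WT libraries close to each other. Fam107a had 346 and 199 counts in WT and 411 and 733 in Rab44-KO. Errfi1 had 2499 and 5203 in WT and 3082 and 10742 in Rab44-KO. Fam107a was lowest in OVA-induced WT, whereas Errfi1 was higher in both OVA-induced libraries than in either normal one. In contrast, Anxa1, a classic anti-inflammatory target, had 6027 counts in WT and 4295 in Rab44-KO after OVA (log2 -0.50, -0.56 to -0.44).

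The targets that glucocorticoids raise in lung epithelium were counted separately. Of 9, 0 were over 1.5-fold higher and 1 lower in Rab44-KO after OVA (median -0.19), and 0 passed 1.5-fold under normal conditions. Over all genes 12.2% were higher and 15.2% lower with OVA, with a median of -0.06. On TPM 3 of the 9 were higher and 0 lower with a median of 0.13. There 27.3% of all genes were higher and 5.45% lower, with a median of 0.26. The median of the 9 was thus below that of all genes on both scales. The surfactant proteins Sftpd (11435 and 26905 counts in WT, 10611 and 16080 in Rab44-KO) and Sftpa1 (44937 and 90530, 44336 and 61053) were highest in OVA-induced WT. The water channel Aqp5 was lowest in OVA-induced Rab44-KO (2751 counts against 3819 to 4515).

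**Figure D4:**
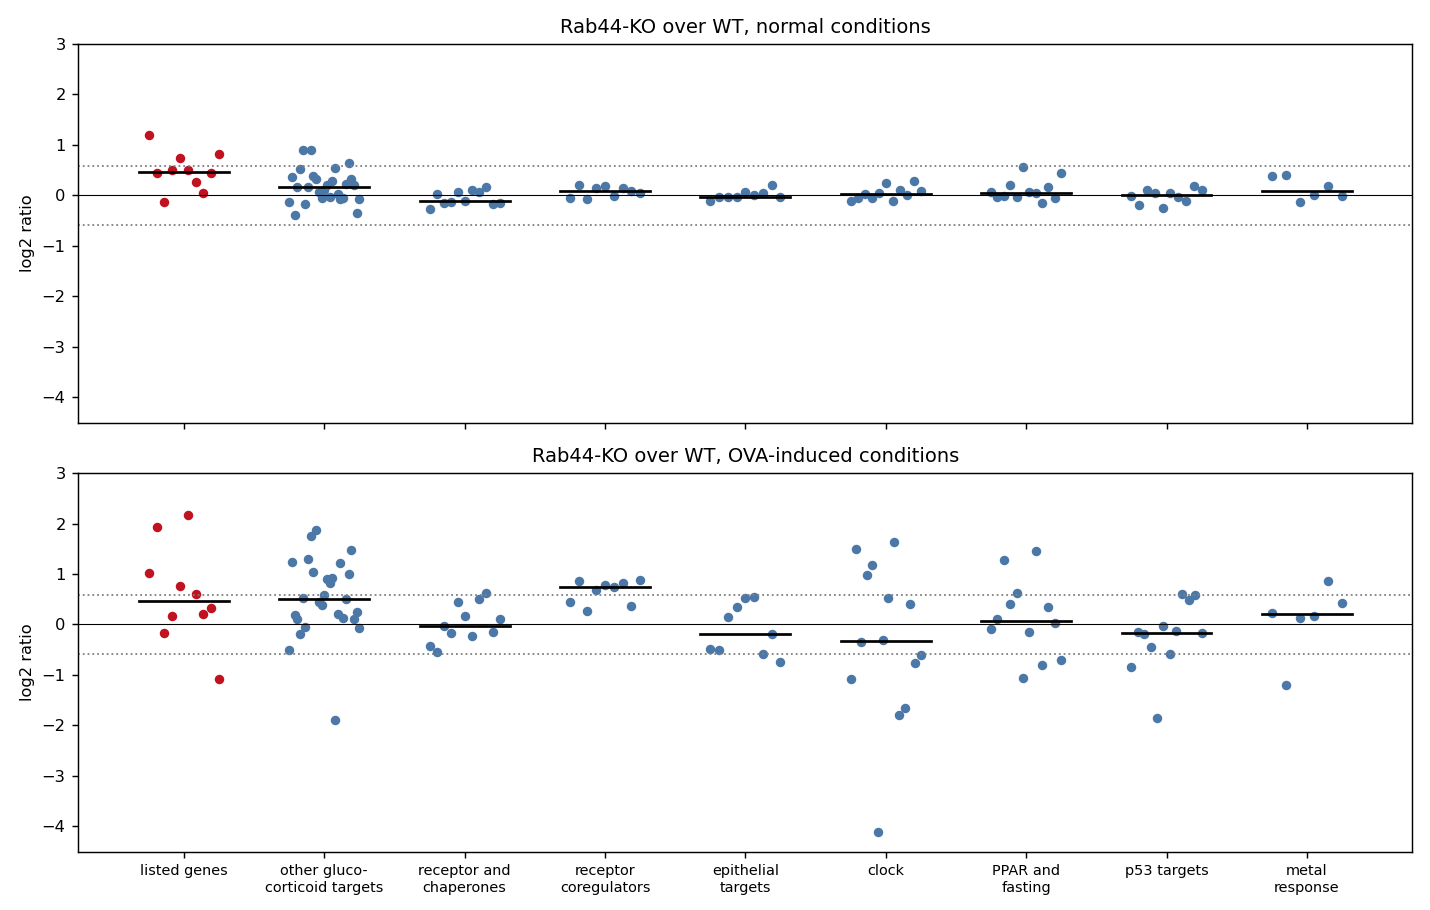
Log2 ratio of Rab44-KO over WT for each gene of 9 lists with at least 100 counts, under normal (top) and OVA-induced (bottom) conditions; each point is a gene, the bar is the list's median and dotted lines mark 1.5-fold. With OVA the medians of the 10 listed genes (0.47), other targets (0.51) and coregulators (0.74) are above 0. That of the clock genes is -0.33 with points on both sides. On TPM 6 clock genes are higher and 4 lower, where 27.3% and 5.45% of all genes are.

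Lists for the other inputs of these genes were read beside them. For Mt1 and Mt2, the 6 metal-response genes with enough counts had 1 over 1.5-fold higher and 1 lower between the OVA-induced genotypes. Over all genes, 12.2% were higher and 15.2% lower there. The zinc importer Slc39a10 had 769 counts in WT and 1401 in Rab44-KO after OVA, Gclc 5452 and 6433, and heme oxygenase Hmox1 1177 and 513. The zinc exporter Slc30a1, a direct target of the metal-responsive factor and named after its values were seen, had 1937 and 1860 counts in the normal libraries and 1240 and 1406 in the OVA-induced ones. The part of metal in the levels of Mt1 and Mt2 was not tested. Of 5 acute-phase genes, 1 was higher and 1 lower between the OVA-induced genotypes. Saa3 had 19 and 1241 counts in WT, without and with OVA, and 28 and 150 in Rab44-KO, and was highest in OVA-induced WT. The interleukin-6 receptor Il6ra was highest in OVA-induced Rab44-KO (1380 counts against 616 to 732), and Socs3 had 763 and 785 counts in the OVA-induced libraries.

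For Pdk4 and Angptl4, 3 of 12 other PPAR and fasting genes were over 1.5-fold higher and 3 lower in Rab44-KO after OVA (median 0.06), and 0 passed 1.5-fold under normal conditions. Over all genes 12.2% were higher and 15.2% lower with OVA (median -0.06). On TPM 5 were higher and 1 lower (median 0.39), where 27.3% and 5.45% of all genes were (median 0.26). The acyl-CoA thioesterase Acot1 had 338 and 571 counts in WT, without and with OVA, and 320 and 1386 in Rab44-KO. Acot1 was highest in the same library as Pdk4. The lipid-droplet protein Plin2 was highest in OVA-induced WT instead (5998 counts, against 3452 in Rab44-KO). Of 7 hypoxia genes, the hormone Adm was higher (433 against 161 counts) and Egln3 lower (65 against 158) between the OVA-induced genotypes, while on TPM 3 were higher and 1 lower. Pfkfb3 had 2607 and 2765 counts in the normal and 1495 and 1734 in the OVA-induced libraries.

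For Cdkn1a, 2 of 12 other p53 targets were over 1.5-fold higher and 2 lower in Rab44-KO after OVA, with a median of -0.16. Over all genes 12.2% were higher and 15.2% lower with a median of -0.06. On TPM the median of the 12 was 0.16 beside 0.26 for all genes, so it was below that of all genes on both scales. Bax had 982 counts in WT and 551 in Rab44-KO after OVA, Gdf15 150 and 42, and Plk2 1175 and 1083. The 2 that were higher, named after their values were seen, were Trp53inp1 (2308 and 3490 counts) and Pmaip1 (444 and 682). The p53 feedback gene Mdm2, named after its values were seen, had 1353 and 1276 counts in WT, without and with OVA, and 1328 and 1255 in Rab44-KO. The part of p53 in the level of Cdkn1a was not tested.

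Clock genes also differed between the OVA-induced and the normal libraries. Of 14 besides Per1, 3 were over 1.5-fold higher and 10 lower with OVA in WT, 5 higher and 9 lower in Rab44-KO, and 4 higher and 6 lower between the OVA-induced genotypes. Over all genes, the shares higher and lower were 11.1% and 7.77%, 6.71% and 6.1%, and 12.2% and 15.2% in those comparisons. On TPM the count between the OVA-induced genotypes was 6 higher and 4 lower, where 27.3% and 5.45% of all genes were. Under normal conditions 0 of 11 passed 1.5-fold between genotypes, where 1.37% of all genes were higher and 0.577% lower. Dbp, an output gene of the clock, had 4881 and 1278 counts in WT, without and with OVA, and 4802 and 74 in Rab44-KO. The clock activators ran the other way. Bmal1 had 59 and 312 counts in WT and 62 and 891 in Rab44-KO. Npas2, a relative of Clock, had 23 and 122 in WT and 28 and 380 in Rab44-KO. The normal libraries were alike in all 3 genes, and OVA-induced Rab44-KO was the lowest library for Dbp and the highest for Bmal1 and Npas2. The hour of collection is not given, and the part of the clock genes in the levels of the 10 genes was not tested.

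Markers of other cell types also differed between the libraries. Summed over 8 neutrophil markers, the level was 100.0 and 126 CPM in the normal libraries and 549 and 698 CPM with OVA. Summed eosinophil markers were 107 and 103 CPM in the normal libraries, 214 CPM in OVA-induced WT and 134 CPM in OVA-induced Rab44-KO. The part of these cells in the OVA ratios of Sgk1, Mt2, Angptl4 and Cdkn1a was not tested. Summed over 7 heart muscle markers, the level was 749 and 819 CPM in the normal libraries. It was 335 CPM in OVA-induced WT and 753 CPM in OVA-induced Rab44-KO. Of the 7, 6 were over 1.5-fold higher between the OVA-induced genotypes, where 12.2% of all genes were. Myh6, the atrial myosin, had 5367 and 1942 counts in WT, without and with OVA, and 6059 and 6774 in Rab44-KO. Heart expresses Pdk4, which was at 15.5 CPM or less in the normal libraries and at 104 CPM in OVA-induced Rab44-KO, and the part of heart tissue in these levels was not tested. Summed over 7 fat cell markers, the level was 103 CPM in WT and 150 CPM in Rab44-KO without OVA. It was 28.8 and 52.0 CPM in the OVA-induced libraries. Of the 5 with enough counts, 4 were over 1.5-fold higher in Rab44-KO without OVA, where 1.37% of all genes were. Car3 had 767 and 1214 counts in the normal libraries. Fat makes Angptl4, which was at 14.7 CPM in WT and 33.8 CPM in Rab44-KO without OVA. With OVA, where the fat markers were lower, Angptl4 was higher, at 51.4 and 104 CPM. The part of fat in the levels of Angptl4 was not tested. Markers that define lung summed to 45068 to 46340 CPM in 3 libraries and 37852 CPM in OVA-induced Rab44-KO.

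The genes most like the 3 widest-ranging members were found by the distance between their log2 ratios to normal WT in the other 3 libraries, among 13889 other genes. Nearest to Cdkn1a were Gm36317 (distance 0.447), Npas2 (0.567) and Ddit4 (0.581), of which Npas2 is on the clock list and Ddit4 on the list of other glucocorticoid targets. Nearest to Pdk4 were the mitochondrial carrier Slc25a34 (0.295), Gm28863 (0.425) and the dexamethasone-induced Ras protein Rasd1 (0.499). Rasd1 had 45 and 125 counts in WT, without and with OVA, and 61 and 351 in Rab44-KO, and Slc25a34 had 19 and 33 in WT and 27 and 182 in Rab44-KO. Nearest to Angptl4 were Nr4a3 (0.551), Mmp9 (0.658) and Trem1 (0.658), the last 2 known from myeloid cells. Gm36317, Slc25a34 and Gm28863 reached 100 counts in OVA-induced Rab44-KO only and had 18 to 38 counts in the normal libraries. Npas2 had 23 and 28 counts in the normal libraries. The places of these genes in this order therefore carry wide counting error. Likeness over 4 libraries is a description of these profiles.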

How the data were processed

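RNA-seq counts per gene from whole lung were analysed in 4 libraries, 1 per group, grouped by the labels. Per the labels and the study's methods, the authors aligned reads of 150 bases, counted whole-number reads per gene and deposited those counts with TPM. Their processing notes name HISAT2, featureCounts, DESeq2 and the build GRCm38. Deposited gene starts, however, equalled GENCODE M21 starts for 0.857% of 28949 matched genes, so positions are printed from GENCODE M21 (GRCm38). The authors' deposited TPM were used to compare levels between genes.

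Counts were scaled to CPM with TMM factors over the 4 libraries (edgeR 4.0.16, R 4.3.3). Log2 ratios used a prior count of 0.125. Intervals at 95% were exact Poisson for CPM and Clopper-Pearson for ratios (SciPy 1.17.1), and the difference of 2 log2 ratios used a normal approximation. With 1 library per group no test was run. Genes with at least 100 counts in the highest library compared were counted beyond 1.5-fold. Steps were tested on simulated data. From each pathway list, the 3 such genes with the widest log2 CPM range were named, plus Nr3c1 and Hsd11b1, and other genes were named after their values were seen. A gene picked by this rule is not reported here. The 10 genes and the lists were chosen with earlier results of these data known. The listed symbol Arntl was matched through its NCBI gene identifier to Bmal1. The alternatives included DESeq2 1.42.0 size factors.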

Additional observations from a re-analysis of the deposited data

Results flagged for a closer look

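Zbtb16 was marked because the 2 genotype ratios lie on opposite sides of 0, with intervals that exclude 0. Rab44-KO over WT was log2 0.81 (0.72 to 0.91) in normal lung and -1.08 (-1.21 to -0.94) in OVA-induced lung, a change of -1.89. With 1 library per group this difference was not tested beyond counting error. Neighbours in its order of levels were 34.0 CPM in OVA-induced Rab44-KO, 71.7 in OVA-induced WT, 75.4 in normal WT and 132 in normal Rab44-KO.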

How the results depend on the processing

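Over 9 alternatives (DESeq2 size factors, total counts, TMM on the pair compared, TPM with a pseudocount of 0.1, a prior count of 2, at least 10 counts, no filter, 2-fold, and counts thinned to the smallest library), values of single members were recomputed. Filters and the fold mark cannot move a member's ratio. Of the 290 values that could move, 258 moved less than their counting interval and 32 more, 30 of them with TPM and 2 with total counts, and no call turned round. TMM on the pair was not run for the difference of responses. Uncalled ratios changed sign in 6 cases, for Fkbp5, Tsc22d3, Mt2 and Angptl4. At 2-fold, 6 calls were lost, those of Mt2 in 4 comparisons, Zbtb16 under normal conditions and Per1 with OVA, which left 1 member higher in Rab44-KO under normal and 3 under OVA-induced conditions. Per1 was counted lower with OVA in WT with total counts (1 member) and with TPM (1 member, log2 -0.73). With TPM the medians of the 10 genes were 0.51 for OVA in WT, 0.80 for genotype with OVA and 0.28 for the difference of responses. TPM also moved the median of all genes, to -0.16, 0.26 and 0.24 in those comparisons. Tsc22d3 between the OVA-induced genotypes (log2 0.66) and Per1 in the difference (log2 0.63) passed 1.5-fold with TPM and not with TMM-scaled counts. Leaving out a library was not possible with 1 per group. No paired analysis was possible because each group holds 1 library and no test was run. Depth limits Mt2 and Pdk4 most, with 171 and 211 counts in normal WT.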

Other observations

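Because Cdkn1a lies 13.4 kb from the edited gene, the other genes within 200 kb of Rab44 were read after its values had been seen. Of 8 neighbours with at least 100 counts in a library, 0 were over 1.5-fold higher and 1 (Cpne5) was lower in Rab44-KO without OVA. Under OVA-induced conditions 0 were higher and 3 were lower, namely Srsf3, Ppil1 and Mtch1, with log2 ratios over the 8 from -1.05 to 0.46. Cpne5, the nearest at 6576 bases, had 159 and 91 counts in WT, without and with OVA, and 96 and 126 in Rab44-KO. Over all genes, 12.2% were higher and 15.2% lower in that comparison. On TPM, an alternative chosen after seeing the data, 1 neighbour was higher with OVA (Cpne5, log2 0.75) and 1 lower (Ppil1, log2 -0.72). Cdkn1a was at log2 1.94 (1.86 to 2.02), and at 2.27 on TPM.

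Gm22146, which the annotation places over Fkbp5, had 0 and 8 counts in WT and 3 and 34 in Rab44-KO, without and with OVA, beside 551 to 825 counts of Fkbp5.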
